A study of Mus musculus with 55 samples.

Results

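The islands described here are the broad H4K20Me3 domains of untreated wild type mouse liver that lay outside the chromatin bound by Lamin A/C. They were selected on the wild type island calls of both targets, as the islands of the wild type H4K20Me3 list that shared no base with any island of the wild type Lamin A/C list, and 507 of the 1635 H4K20Me3 islands met this rule. The other 1128 are called overlapping islands below, and the 507 are called outside islands. Both lists came from CUT&Tag, in which an antibody directs a transposase to cut and tag the DNA around its target in intact nuclei. An island is a stretch of 20-kb windows that the authors' caller joined because they held more reads than expected, and its score sums the evidence over its windows.

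The untreated wild type livers were compared with livers of Setd8-LKO mice, which are Setd8 lox/lox-AlbCre animals whose Cre recombinase is driven by the albumin promoter and therefore acts in hepatocytes. The Setd8-LKO mice had been given a single injection of TCPOBOP, a mitogen that acts through the nuclear receptor CAR, at 3 mg/kg and were killed after 24 h, so genotype and treatment cannot be told apart in any chromatin list. RNA-seq also covered wild type mice given TCPOBOP, but the Setd8-LKO RNA was compared with untreated wild type. In that comparison genotype and treatment cannot be told apart either. Where its values are given for wild type and Setd8-LKO, untreated wild type and TCPOBOP-treated Setd8-LKO are meant. All mice were males of 45 to 50 days. The lists were made from 2 wild type and 2 Setd8-LKO samples for H4K20Me3, 4 and 4 for Lamin A/C, 3 and 3 for acetylated H3K27 (H3K27ac), 3 and 5 for ATAC-seq, 4 and 2 for CTCF, and 3 and 2 for Smc3, and RNA-seq comprised 5 libraries of untreated wild type, 5 of wild type after TCPOBOP and 4 of Setd8-LKO after TCPOBOP. Replicate numbers 1 and 2 occur more than once among the wild type Lamin A/C samples, so their number of livers is not known. The controls carry the label untreated while the methods mention a vehicle, and whether they were injected is not known. For each mark there was a single list per condition, so no difference between lists could be tested over livers, and every 95% interval given for islands, peaks or promoters covers counting error only.

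Histone H4 lysine 20 is monomethylated by Setd8 (gene Kmt5a), and Kmt5b and Kmt5c add the further methyl groups that make H4K20Me3, a mark of constitutive heterochromatin, repeats and imprinted regions. Lamin A/C forms part of the meshwork under the inner nuclear membrane, where long gene-poor and mostly silent domains are anchored. A separate kind of heterochromatin is known at clusters of KRAB zinc finger genes, whose repeated coding units are bound by HP1 and carry H3K9me3 and H4K20Me3 although many of the genes are transcribed. KRAB zinc finger proteins bind DNA, often at transposable elements, and recruit the corepressor Trim28.

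The linker between zinc fingers recurs in the windows printed below, which come from outside islands with and without zinc finger genes recognised by symbol. The number of outside islands with such recurring copies was not counted. Each C2H2 finger is joined to the next by a short conserved stretch in which the letters GAGAAACC lie within the codons for Glu-Lys-Pro. The windows of 300 bases are shown because each lies in an outside island and holds 4 copies of these letters (in capitals) on the plus strand of GRCm38, printed 5′ to 3′, with 84 bases from the start of each copy to the next. The first lies wholly in coding sequence of Zfp758 at chr17:22375394-22375693. The second lies in an exon of the unprocessed pseudogene Gm49331 at chr12:17902739-17903038, in the island with the highest score. The last lies wholly in coding sequence of Gm15446 at chr5:109942257-109942556.
Zfp758 window: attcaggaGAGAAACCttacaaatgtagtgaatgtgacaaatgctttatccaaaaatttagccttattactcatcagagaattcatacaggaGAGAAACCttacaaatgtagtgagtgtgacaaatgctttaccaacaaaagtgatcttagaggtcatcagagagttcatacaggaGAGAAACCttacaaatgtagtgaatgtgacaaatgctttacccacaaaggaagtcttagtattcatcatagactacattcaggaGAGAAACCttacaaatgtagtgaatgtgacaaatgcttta
Gm49331 window: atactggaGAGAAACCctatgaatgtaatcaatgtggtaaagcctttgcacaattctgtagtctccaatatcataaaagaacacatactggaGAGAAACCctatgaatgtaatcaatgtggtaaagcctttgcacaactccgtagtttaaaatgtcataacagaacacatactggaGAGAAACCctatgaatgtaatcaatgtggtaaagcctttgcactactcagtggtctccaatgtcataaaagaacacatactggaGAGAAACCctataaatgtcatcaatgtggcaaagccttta
Gm15446 window: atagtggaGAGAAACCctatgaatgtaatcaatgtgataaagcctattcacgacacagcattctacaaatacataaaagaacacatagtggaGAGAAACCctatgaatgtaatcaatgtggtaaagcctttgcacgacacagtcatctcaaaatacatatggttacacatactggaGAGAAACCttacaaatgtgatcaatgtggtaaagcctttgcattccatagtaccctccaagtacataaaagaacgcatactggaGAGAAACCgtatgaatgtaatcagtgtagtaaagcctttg

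The outside islands covered 73.08 Mb, against 643.54 Mb in the overlapping islands. Their lengths ran from 20 to 1480 kb with a median of 100 kb (95% interval of the median 80 to 100), and the overlapping islands had a median of 320 kb (300 to 340). Their scores ran from 34.9 to 6261 with a median of 73.3 (66.0 to 80.4), against a median of 204 in the overlapping islands. Thus most outside islands were short and weakly scored, but 38 were longer than 320 kb and 141 had a score above the median of all WT islands, which was 132. Length and score were part of the readout by which the islands were defined, and they are given as a description.

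At the edge of the rule, 7 outside islands touched a Lamin A/C island end to end without sharing a base, for example chr3:138640001-138700000 with a score of 172. The median distance to the nearest Lamin A/C island was 980 kb, 451 islands were at least 100 kb away and 247 at least 1000 kb away. The most distant was chr5:151460001-151720000, the island of Rfc3, a subunit of the clamp loader of DNA replication, at 49880 kb. On the other side of the rule, 20 islands overlapped by a single 20-kb window, such as chr7:128840001-129220000, of which 5.26% was covered. Only 38 of the 1128 overlapping islands were covered by less than 50%, and 833 were covered completely, so few islands sat near the boundary.

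The outside islands were spread unevenly over the chromosomes. They covered 8.97% of the X chromosome, 5.57% of chromosome 5, 5.29% of chromosome 12 and 3.82% of chromosome 13, and among chromosomes with Lamin A/C islands their lowest share was 0.736%, on chromosome 2. On the X chromosome 73.0% of the 89 H4K20Me3 islands were outside islands, against 10.5% on chromosome 2. Lamin A/C islands covered 5.23% of the X and none of chromosome 19 or the Y, so the 5 islands on each of the last 2 could not overlap. These livers were from males, with a single X and a single Y, and the part of copy number in these shares was not tested.

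**Figure D1:**
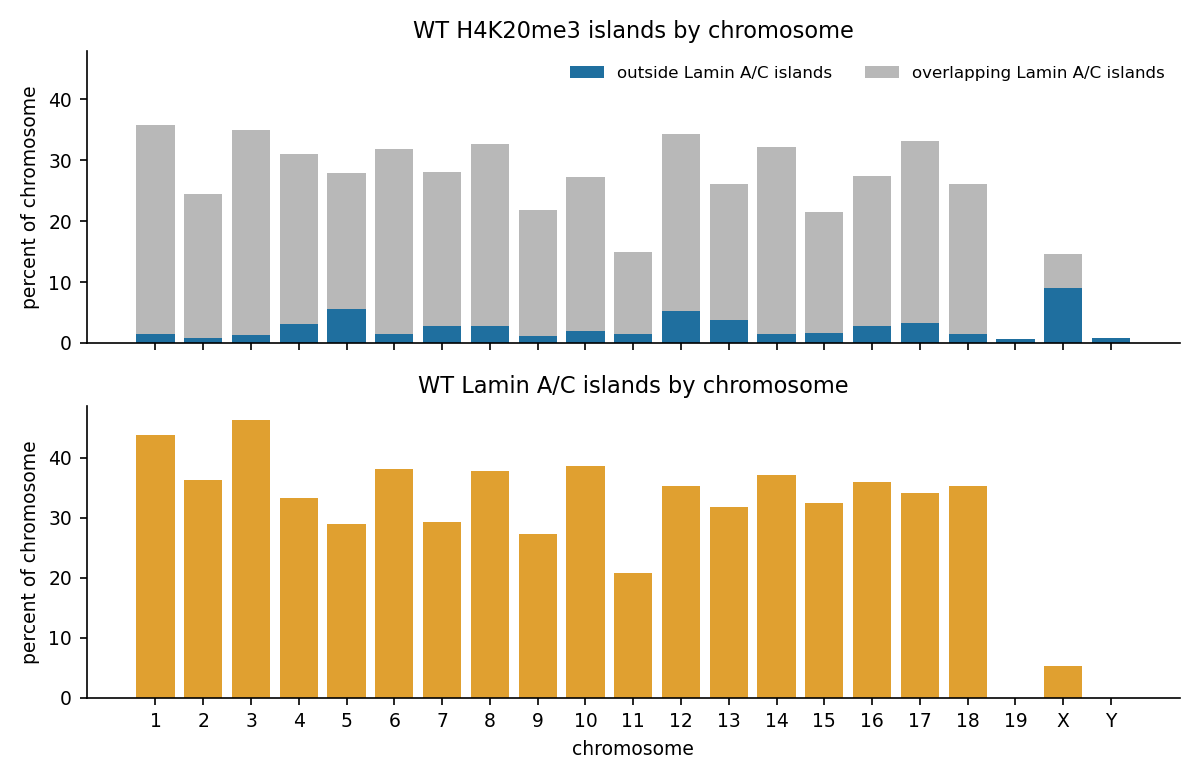
Percent of each chromosome covered by WT H4K20Me3 islands outside (blue) and overlapping (grey, stacked) Lamin A/C islands in the upper panel, and by WT Lamin A/C islands in the lower panel. The blue bars are highest on X (8.97%), 5 (5.57%) and 12 (5.29%), and chromosome 19 and Y hold no Lamin A/C island.

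The 65 X-linked outside islands were longer, richer in repeats and poorer in peaks than those on autosomes. Their median length was 180 kb and their median repeat-masked share 56.4%, against 100 kb and 42.8% in the 437 autosomal ones. They held 32 protein-coding genes, and 62 of the 65 (95.4%) contained no peak of H3K27ac, ATAC-seq, CTCF or Smc3 in either condition, against 234 autosomal ones (53.5%). Overlapping islands on the X were also rich in repeats (median masked share 53.2%), and 23 of 24 (95.8%) held no peak. The overlapping islands on autosomes gave 40.2% and 47.6%. Among the longest outside islands, chrX:79860001-80960000 (1100 kb, score 505) had no protein-coding gene, chrX:120900001-122000000 (1100 kb, score 673) held only Pcdh11x, a protocadherin gene, and chrX:64320001-65280000 (960 kb, score 420) held only Ctag2.

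The longest and strongest autosomal islands had higher scores and smaller masked shares than the X-linked islands named above. Their masked share was 22.3% in the longest and 42.6% to 47.4% in the others, against a median of 42.8% in autosomal outside islands. The longest, chr4:152440001-153920000 (1480 kb), had a score of 4249 and held parts of Kcnab2, a potassium channel subunit gene, Nphp4, a cilium gene, and Ajap1, with a masked share of 22.3% and a GC content of 49.6%. The highest score, 6261, belonged to chr12:17820001-18860000 (1040 kb). It opened a run of 9 outside islands that ended at chr12:23220001-23280000 and summed to 3.70 Mb. The islands chr12:19600001-20040000 and chr12:20300001-21060000 of that run had scores of 4485 and 3517, and chr5:104560001-105180000, which spans Zfp951, the transporter gene Abcg3 and the guanylate-binding protein genes Gbp4, Gbp8 and Gbp9, had 3957.

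In base composition the outside islands stood near the genome average and above the overlapping islands. Their median GC content was 41.7% (41.5 to 42.1), against 38.8% (38.7 to 39.0) in overlapping islands and 41.7% over the genome. The observed over expected CpG ratio was 0.174 (0.169 to 0.179), between 0.149 in overlapping islands and 0.190 in the genome. Repeats were masked over a median of 45.6% (43.7 to 47.9) of an outside island, more than the 40.4% (39.7 to 41.2) of overlapping islands and the 36.4% of the genome. The letters GAGAAACC, searched on both strands, occurred at a pooled 115 per Mb in outside islands, 73.7 in overlapping islands and 104 in the genome. The difference between outside islands and the genome rested on a minority of islands, since their median was 80 per Mb. The densest was the 40-kb island chr12:19400001-19440000 of the chromosome 12 run, with 700 per Mb, and the island of highest score had 235 per Mb.

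Of the 507 outside islands, 242 (47.7%, 43.3 to 52.2) touched a protein-coding gene, a share like the 48.5% of the overlapping islands although these are longer. The gene density was 6.88 per Mb (6.29 to 7.51) in outside islands, with 503 genes, and 3.02 per Mb (2.89 to 3.16) in overlapping islands, with 1943. The outside islands held 2.29% of all protein-coding genes and the overlapping islands 8.85%.

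Zinc finger genes were more frequent per Mb in the outside than in the overlapping islands. By symbol, 86 of 470 zinc finger genes (18.3%) lay in 39 outside islands, and 35 lay in overlapping islands. This was 1.18 per Mb (0.941 to 1.45) against 0.0544 per Mb (0.0379 to 0.0756). The 39 islands spanned 7.12 Mb with a median score of 182, and their linker letters had a median of 210 per Mb. Together 3 islands held 24 of the 86 genes. The island chr17:21760001-22400000 (640 kb, score 2201) held Zfp229, Zfp820, Zfp995, Zfp942, Zfp943, Zfp947, Zfp994, Zfp944 and Zfp758 among its 10 genes. The island chr7:29580001-29940000 (360 kb, score 1034) held 8, among them Zfp30 and Zfp420, and chr13:67560001-67940000 (380 kb, score 699) held 7, among them Zfp65 and Zfp85.

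By count, sensory receptor genes lay mostly in overlapping islands, which cover more sequence. Of 1135 olfactory receptor genes, 41 (3.61%) were in outside islands and 693 in overlapping ones, and of 331 vomeronasal receptor genes 33 (9.97%) and 167. Per Mb the olfactory receptor genes were sparser in outside islands (0.561 against 1.08) and the vomeronasal ones denser (0.452 against 0.26). The clustered protocadherins, adhesion molecules of neurons, were split, since 18 of 57 (31.6%) lay in a single 140-kb outside island on chromosome 18, which holds Pcdhg genes and Taf7 and was the island with the most genes (19), and 36 lay in overlapping islands. Among families with roles in liver, all 5 P450 genes in outside islands were Cyp2j genes (Cyp2j13, Cyp2j12, Cyp2j7, Cyp2j11 and Cyp2j8) of chr4:96040001-96480000, and Ugt2b37, a glucuronosyltransferase, and Mup21, a major urinary protein, were the sole members of their families. No P450, Ugt or Mup gene lay in an overlapping island. No Hox, keratin or Klr gene (39, 113 and 26 genes) lay in an outside island, against 2.29% of all protein-coding genes. Each of these families alone is too small to tell 0 from that share. Overlapping islands held 0, 12 and 13 Hox, keratin and Klr genes.

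Of 36 genes for heterochromatin and lamina proteins, among them Kmt5a, Kmt5b, Kmt5c, Trim28 and Lmna, none lay in an outside or an overlapping island. Over all protein-coding genes the shares were 2.29% and 8.85%, and 36 genes are too few to tell 0 from 2.29%. Of 29 imprinted genes found in the annotation, Gnas, a G protein subunit gene, and its antisense transcript Nespas lay in the outside island chr2:174140001-174300000 (160 kb, score 89.2), and Peg3, Zim1, Usp29, Snrpn and Ndn lay in overlapping islands. No marker gene of hepatocytes, cholangiocytes, macrophages, endothelium or stellate cells lay in an outside island. These lists hold 5 to 10 genes each, too few to tell 0 from the share of 2.29%. Overlapping islands held 1 macrophage and 1 stellate marker. As a check of the tissue, 9 of 10 hepatocyte marker promoters carried a wild type H3K27ac peak, against 3 of 6 for cholangiocytes, 0 of 7 for macrophages, 1 of 5 for endothelium and 1 of 6 for stellate cells.

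The marks of active chromatin were sparse in the outside islands, but far less so than in the overlapping islands. H3K27ac, a mark of active promoters and enhancers, gave 170 peaks in the wild type list, or 2.33 per Mb (1.99 to 2.70), against 0.131 per Mb in overlapping islands and 14.4 per Mb elsewhere. ATAC-seq, which reads open chromatin, gave 169 peaks or 2.31 per Mb, against 0.200 and 14 per Mb. CTCF, a factor that halts loop extrusion, and Smc3, a cohesin subunit, gave 29 and 44 peaks or 0.397 and 0.602 per Mb. At the same time 300 of the 507 outside islands (59.2%) held no peak of any assay in either condition, and so did 548 (48.6%) of the longer overlapping islands.

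The peaks were concentrated in the zinc finger islands. These carried 13.6 wild type H3K27ac peaks and 12.6 ATAC-seq peaks per Mb, close to the density outside all islands, whereas the outside islands without zinc finger genes carried 1.11 and 1.20. Of the 39, 30 (76.9%) held an H3K27ac peak. The most wild type H3K27ac peaks, 8 in each case, were found in the chromosome 17 cluster, in chr5:109600001-110140000 (540 kb, score 2389, with Gm15446, Zfp932 and Zfp605), in chr9:22200001-22300000 (100 kb, score 201, with Zfp872, Zfp809, Zfp599 and Zfp810) and in chr15:76160001-76200000 (40 kb, score 200), the island of Plec, which encodes the cytoskeletal linker plectin.

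**Figure D2:**
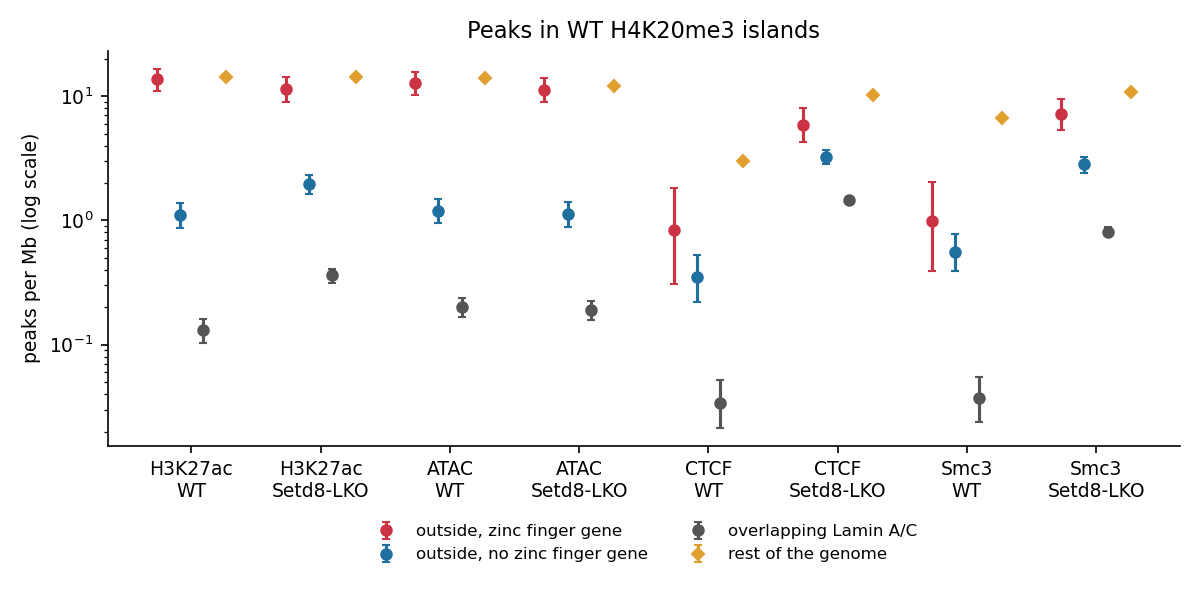
Peaks per Mb, with 95% Poisson intervals as bars, in outside islands with and without zinc finger genes, overlapping islands and the rest of the genome, for each assay and condition. Zinc finger islands reach 13.6 (WT) and 11.4 (Setd8-LKO) H3K27ac peaks per Mb, near the 14.4 and 14.1 of the rest of the genome, and overlapping islands stay at or below 1.46 in all lists.

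At promoters, taken as 1000 bp on either side of a start site, 46 of the 72 zinc finger genes that start in outside islands (63.9%, 51.7 to 74.9) carried wild type H3K27ac and 51 (70.8%) an ATAC-seq peak. Zinc finger genes outside all islands had 264 of 367 promoters (71.9%, 67.0 to 76.5) with H3K27ac, an interval that overlaps the former. Of the 316 other genes that start in outside islands 38 (12%) carried H3K27ac, and of all 1718 in overlapping islands 55 (3.20%). The 31 zinc finger promoters of overlapping islands had H3K27ac in 12 (38.7%, 21.9 to 57.8) and an ATAC-seq peak in 18 (58.1%), with intervals that overlap those of the outside islands. The promoters differed in sequence as well. Counted over 250 bases before and 50 after the start site, zinc finger promoters of outside islands held a median of 9 CG dinucleotides (8 to 11), the other genes 2, zinc finger genes outside all islands 15 (14 to 17) and all genes there 13. Within the outside islands the 84 promoters with wild type H3K27ac had a median of 11 and the 304 without it 2.

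The promoters below, from the RefSeq table of GRCm38, are printed because each belongs to one of the strongest active peaks in outside islands that lie at a start site, with CG dinucleotides in capitals. Zfp68 (chr5:138619694-138619993, minus strand) has 10 of them and overlapped the H3K27ac peak chr5:138619305-138619793, with a fold enrichment of 66.3 over background. Rfc3 (chr5:151651159-151651458, minus strand) has 21 and overlapped in part the ATAC-seq peak chr5:151651049-151651356, with 13.98 in the wild type list and 14.1 in the overlapping peak of the Setd8-LKO list. A wild type ATAC-seq peak with 14.16, chr5:109844973-109845245, was stronger but lay 78291 bp from the nearest protein-coding start site, that of Gm15446.
Zfp68 promoter: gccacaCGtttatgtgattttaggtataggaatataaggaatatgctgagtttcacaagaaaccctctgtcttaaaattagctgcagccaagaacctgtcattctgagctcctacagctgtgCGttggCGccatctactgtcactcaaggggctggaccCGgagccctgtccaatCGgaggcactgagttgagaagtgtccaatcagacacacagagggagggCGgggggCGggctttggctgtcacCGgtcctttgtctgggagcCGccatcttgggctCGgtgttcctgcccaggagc
Rfc3 promoter: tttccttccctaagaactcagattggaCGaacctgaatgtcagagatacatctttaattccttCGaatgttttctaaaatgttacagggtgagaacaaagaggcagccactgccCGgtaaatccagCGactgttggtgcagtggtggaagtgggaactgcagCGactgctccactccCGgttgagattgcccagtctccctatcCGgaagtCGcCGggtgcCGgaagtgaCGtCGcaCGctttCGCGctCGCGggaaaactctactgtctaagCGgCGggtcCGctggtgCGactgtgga
The strongest wild type H3K27ac peak of all outside islands, with 66.8, was chr12:17881443-17882735 in the island of highest score, 191213 bp from the nearest protein-coding start site.

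In the Setd8-LKO lists the numbers of H3K27ac and ATAC-seq peaks in the outside islands stayed within 1.5 times those of wild type, while CTCF and Smc3 peaks were several times as many. H3K27ac gave 210 peaks in the outside islands, of which 129 overlapped a wild type peak and 81 did not. ATAC-seq gave 154, of which 130 overlapped one. For H3K27ac the share that overlapped was 61.4%, against 74.998% elsewhere in the genome and 29.3% in overlapping islands. For ATAC-seq it was 84.4%, near the 85.7% elsewhere, and 67.2% in overlapping islands. In the overlapping islands H3K27ac went from 84 to 232 peaks (0.131 to 0.361 per Mb) and ATAC-seq from 129 to 122. In the outside islands CTCF went from 29 to 256 peaks (3.50 per Mb, 3.09 to 3.96), of which 242 overlapped no wild type peak, and Smc3 from 44 to 237 (3.24 per Mb, 2.84 to 3.68), of which 218 did not. The shares of CTCF and Smc3 peaks that did overlap one were 5.47% and 8.02%, against 17.0% and 24.7% elsewhere in the genome. In overlapping islands they were 0.852% and 1.53%. The whole CTCF list also grew, from 5838 to 20905 peaks, and the Smc3 list from 13045 to 21615. In the overlapping islands CTCF went from 22 to 939 peaks (0.034 to 1.46 per Mb) and Smc3 from 24 to 523 (0.037 to 0.813 per Mb). Elsewhere in the genome CTCF went from 3.00 to 10.2 and Smc3 from 6.72 to 10.8 per Mb. The CTCF lists rest on 4 wild type and 2 Setd8-LKO samples, and the part of sample number or antibody yield in these numbers was not tested.

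The CTCF and Smc3 peaks of the Setd8-LKO lists were denser toward island ends. In the 217 outside islands longer than 100 kb, the outermost 20 kb on each side held 4.84 CTCF peaks per Mb (3.49 to 6.54) and the interior 2.56 (2.12 to 3.06), and Smc3 gave 4.72 and 2.43. The highest fold enrichments were 94.2 for CTCF at chr1:52630437-52630992 and 123 for Smc3 at an overlapping position, next to the start of Nemp2, a nuclear envelope membrane protein gene, in an island of 40 kb with a score of 56.3. CTCF at the start of Zfp619 (chr7:39517609-39518150) followed with 92.9. The Plec island went from 2 to 17 CTCF peaks and from 2 to 11 Smc3 peaks, and the Gnas island from 0 to 8 and from 0 to 7. At promoters of zinc finger genes in outside islands, CTCF was listed at 2 of 72 in wild type and 13 (18.1%, 9.98 to 28.9) in Setd8-LKO, below the 155 of 367 (42.2%, 37.1 to 47.5) of zinc finger genes elsewhere.

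A short core of the CTCF motif, CCANNAGGG on either strand, was searched within 100 bp of each CTCF summit. It was found at 6 of 29 wild type summits in outside islands (20.7%) and at 23 of 256 Setd8-LKO summits (8.98%), with 21.8% and 10.7% over the whole lists and 2.39% in windows of the same length tiled over the outside islands. The strongest wild type CTCF peak of an outside island lay in an intron of Plec, and the 201 bases around its summit (chr15:76196715-76196915, minus strand) are printed because they hold 2 matches, in capitals. Its fold enrichment was 17.2. The window around the next strongest wild type summit (chr5:131428113-131428313) held 0 matches. The windows around the strongest Setd8-LKO summits, at Nemp2 and Zfp619, held 0 each.
Plec CTCF summit: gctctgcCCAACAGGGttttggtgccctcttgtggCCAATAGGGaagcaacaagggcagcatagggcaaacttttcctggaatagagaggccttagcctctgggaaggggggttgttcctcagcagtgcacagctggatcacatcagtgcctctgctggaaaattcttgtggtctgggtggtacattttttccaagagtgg

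Most outside islands were found again in the Setd8-LKO H4K20Me3 list, which was made from other animals than those the rule used. Of the 507, 434 (85.6%, 82.2 to 88.5) overlapped a Setd8-LKO island by at least 1 bp, and 73 did not. The share was 80.6% (78.2 to 82.9) for the overlapping islands and 82.1% for all 1635, so the share of the outside islands was near the background. On autosomes the shares were 88.6% (85.2 to 91.4) for outside and 80.6% (78.2 to 82.9) for overlapping islands, with intervals that do not overlap. On the X they were 67.7% (54.9 to 78.8) and 79.2% (57.8 to 92.9). Complete coverage was more frequent among the outside islands, with 320 of 507 (63.1%) against 302 of 1128 (26.8%), but a short island is covered completely more easily. By length in bp the order was the reverse, with 75.8% of the outside and 81.3% of the overlapping sequence covered.

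Within classes of length the outside islands were found again more often in the middle classes. At 60 to 80 kb the shares were 85.3% (77.3 to 91.4) for outside and 62.3% (49.8 to 73.7) for overlapping islands, and at 100 to 160 kb they were 81.9% (74.96 to 87.6) and 63.8% (56.8 to 70.3). At 180 to 320 kb the intervals overlapped, with 78.3% and 69.6%, and above 320 kb 97.4% and 95.2% were found again. A like order appeared by wild type score, where scores up to 60.3 gave 75% (68.4 to 80.8) and 43.1% (36.3 to 50.1), and all islands with a score over 487 were found again in both groups.

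**Figure D3:**
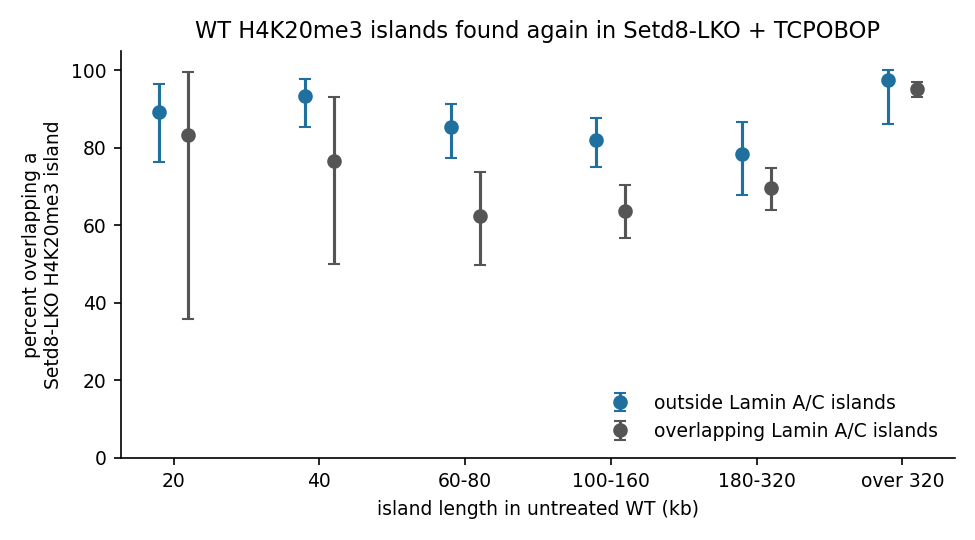
Percent of wild type H4K20Me3 islands that overlap a Setd8-LKO H4K20Me3 island, by length class in kb, for outside and overlapping islands, with 95% Clopper-Pearson intervals. The intervals of the 2 groups do not overlap at 60 to 80 kb and 100 to 160 kb, and both groups exceed 95% above 320 kb.

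All 39 zinc finger islands were found again, with 98.3% of their sequence covered. Of the X-linked islands 67.7% (54.9 to 78.8) were found again, against 88.6% (85.2 to 91.4) of the autosomal ones. The 73 islands that were not found again had a median score of 47.7 against 81.9 for the others, held no zinc finger gene and contained a single wild type H3K27ac peak. The longest of them were chr14:19040001-19420000 (380 kb, score 485), which nevertheless held a Smc3 peak of fold enrichment 94.0 in the Setd8-LKO list, chr12:27020001-27280000 (260 kb, score 124) and chr9:116520001-116760000 (240 kb, score 113), which lies on Rbms3, a gene for an RNA-binding protein.

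The scores of the outside islands were higher in the Setd8-LKO list. Of the 365 that matched a single Setd8-LKO island which matched no other wild type island, 323 (88.5%) had a higher score there, and the median ratio of Setd8-LKO to wild type score was 2.75 (2.55 to 3.01). The 611 overlapping islands matched in this way had a median ratio of 1.06 (1.03 to 1.10), with 351 (57.4%) higher. The difference was present in each class of wild type score (up to 60.3, 132, 487 and over), with median ratios of 2.79, 2.67, 2.86 and 3.03 for outside islands and 1.29, 1.01, 0.960 and 1.08 for overlapping islands. The score depends on the reads left after the authors' reduction and on the caller's background, 2 samples per condition stand behind it, and no spread between livers could be given.

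Zinc finger islands had the highest ratio. All 31 that matched singly scored higher in Setd8-LKO, with a median ratio of 5.75 (4.36 to 7.75), while outside islands with other genes had 2.60 and those without genes 2.61. On the X the median was 1.43 (1.12 to 2.32, 29 islands). The chromosome 7 zinc finger island went from 1034 to 5152, the chromosome 13 island from 699 to 3043 and the chromosome 9 island from 201 to 2617. The chromosome 17 cluster, with 2201 in wild type, lay in a Setd8-LKO island of 1300 kb with a score of 21671 that also held another wild type island, and was left out of the ratios. The protocadherin island of chromosome 18 went from 466 to 5585, the Plec island from 200 to 2000, the longest island from 4249 to 12695 and the highest-scoring one from 6261 to 15464. The Setd8-LKO score was exactly 2000 for the Plec island and exactly 1000 for another outside island. Whether the score has an upper limit was not tested.

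**Figure D4:**
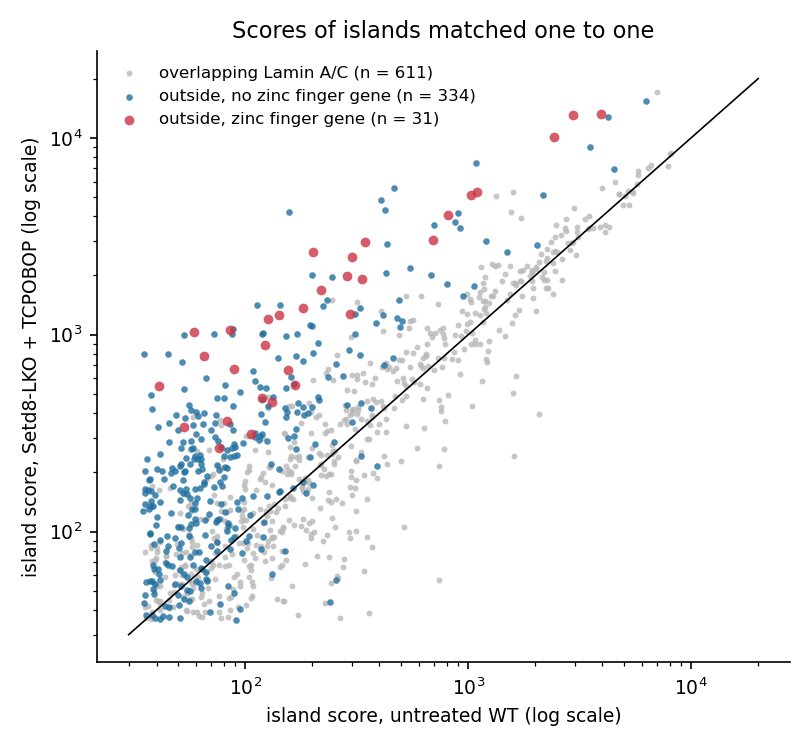
Score of each singly matched island in the Setd8-LKO list against its score in the wild type list, both on log axes, for overlapping, outside and zinc finger outside islands, with the line of equal scores. All 31 zinc finger islands lie above the line, as do 323 of 365 outside islands and 351 of 611 overlapping islands.

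The islands seldom changed sides. A Setd8-LKO Lamin A/C island overlapped 30 of the 507 outside islands (5.92%, 4.03 to 8.34), and 1012 of the 1128 overlapping islands (89.7%, 87.8 to 91.4). The share over all 1635 was 63.7%. None of the 39 zinc finger islands was among the 30 (0%, 0 to 9.03), but that interval holds the 5.92% of all outside islands. No island of the chromosome 12 run was among the 30 either, but its 9 islands are too few to tell 0 from that share. The 30 included chr8:21860001-21940000, which holds 5 beta-defensin genes (antimicrobial peptides), was covered completely by Lamin A/C and had a score of 51.4, and chr6:122940001-123140000 (score 195), which holds 4 Clec4 genes for lectin receptors and was covered to 70%. Of the 7 outside islands that touched a wild type Lamin A/C island, all were found again in the Setd8-LKO H4K20Me3 list, and 3 overlapped a Setd8-LKO Lamin A/C island.

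When the rule was applied to the Setd8-LKO lists alone, 1032 of 2106 H4K20Me3 islands lay outside Lamin A/C islands, with 104.3 Mb and a median length of 60 kb. Zinc finger genes stood at 1.25 per Mb (1.04 to 1.48) in these and 0.061 per Mb (0.041 to 0.086) in the overlapping ones, and protein-coding genes at 8.49 and 3.08 per Mb. H3K27ac gave 4.99 and 0.305 peaks per Mb. Of the 1032, 403 touched an outside island of wild type and 497 (26.88 Mb) touched no wild type H4K20Me3 island. The other 535 touched one, as did 1022 of the 1074 Setd8-LKO islands that overlapped Lamin A/C islands.

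RNA-seq bore on the outside islands only through the genes that the authors had selected as changed, since their tables list no others. In the table for Setd8-LKO + TCPOBOP against untreated wild type, 63 genes touched an outside island and 62 could be tested, and edgeR's quasi-likelihood test called 29 higher and 19 lower in Setd8-LKO at a Benjamini-Hochberg adjusted p under 0.05 and a log2 fold change of at least 1 in size. The median log2 fold change was 1.05. Among all 3807 genes tested, 84.6% were called, 50.7% higher and 33.9% lower, with a median of 1.19, so the genes of outside islands were near the background of the table. With DESeq2 size factors computed from the listed genes, the median of all genes shifted by -0.82 and the split in outside islands became 8 higher and 25 lower. The split of all 3807 genes turned as well, from 1932 higher and 1289 lower to 816 and 1460. The direction of the balance thus depends on the scaling, in the whole table as in the outside islands. These are whole-liver RNAs, in which fewer cells of a type and less RNA per cell cannot be told apart.

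Kmt5a, the gene inactivated by deletion of its exon 7, had normalized counts of 613, 567, 761, 563 and 715 in untreated wild type and 1341, 1465, 1338 and 1313 in the libraries labelled Setd8-LKO. The groups did not overlap and the labelled Setd8-LKO libraries were higher, with a log2 fold change of 1.08 (SE 0.14, edgeR adjusted p = 0.000445). With DESeq2 size factors the log2 fold change was 0.27 and the call was lost. These counts are not split by exon, so they check nothing about the deletion of exon 7. The group is therefore named by its label, and each direction given here is that of the libraries labelled Setd8-LKO.

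Among the genes of outside islands that rose, Dctd, which encodes deoxycytidylate deaminase of nucleotide synthesis, had normalized counts of 1, 0, 1, 2 and 6 in wild type and 69, 79, 78 and 59 in Setd8-LKO. All Setd8-LKO libraries were above all wild type libraries, with a log2 fold change of 5.10 (SE 0.48, edgeR adjusted p = 6e-05). Its start site lay just before the island chr8:48100001-48280000, whose score went from 354 to 8303 in a Setd8-LKO island that held another wild type island too. Dlgap2, a scaffold gene of synapses, had 58, 56, 59, 57 and 50 in wild type and 936, 883, 806 and 872 in Setd8-LKO. The groups were far apart and tight (log2 fold change 3.96, SE 0.14, edgeR adjusted p = 8.27e-07), and its island chr8:14120001-14200000 (score 54.3) was found again.

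AI506816, a noncoding transcript, had 172, 172, 277, 313 and 321 against 1495, 1769, 1965 and 1648, with a log2 fold change of 2.78 (SE 0.23, edgeR adjusted p = 2.81e-05). Lrrc8b, a subunit of the volume-regulated anion channel, had 32, 23, 42, 25 and 17 against 211, 227, 91 and 134, a rise of 2.58 (SE 0.34, edgeR adjusted p = 0.000538). In neither gene did the groups overlap, which was a condition for naming the largest rises and falls. Ppm1h, a phosphatase gene, rose by 2.11, Sdk2, an adhesion molecule gene, by 2.41, and Shcbp1, a gene known from dividing cells, by 2.16 on the log2 scale. The noncoding genes Gm11814 (3.81), Gm49448 (2.41) and Gm40849 (2.25) rose as well, the last in the island chr12:18900001-19320000 of the chromosome 12 run. Of these, Gm11814 is a processed pseudogene, which can share reads with related copies. Gm40849 and Shcbp1 lost their calls with DESeq2 size factors. Of the genes named here by their RNA values, Dctd, Dlgap2, Sdk2, Shcbp1, Ppm1h, Slco1a5, Gm7247, Zfp37 and Zfp872 had their start sites outside the islands that they touched.

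Among the genes that fell, Mup21 had normalized counts of 30308, 37588, 16967, 24283 and 25346 in wild type and 197, 651, 6226 and 2897 in Setd8-LKO. The groups did not overlap but the Setd8-LKO libraries spread widely, and the log2 fold change was -3.43 (SE 0.83, edgeR adjusted p = 0.0316). The call was lost without Setd8-LKO replicate 2 or 4 (adjusted p 0.0851 and 0.0945) or without untreated wild type replicate 1, 2, 4 or 5 (0.0633, 0.074, 0.0605 and 0.0581). Its island chr4:62100001-62200000, shared with Zfp37, went from 6 to 1 H3K27ac peaks and from a score of 334 to 1923. Reads of Mup genes can fall on near-identical copies, so this value is uncertain.

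Ugt2b37 had 1699, 2021, 1365, 1086 and 1421 in wild type and 343, 355, 458 and 328 in Setd8-LKO. The groups were well separated (log2 fold change -2.03, SE 0.21, edgeR adjusted p = 9.59e-05). Cyp2j11 had 23, 20, 29, 20 and 29 against 4, 7, 13 and 4, with a log2 fold change of -1.76 (SE 0.37, edgeR adjusted p = 0.0123), and its groups did not overlap either. Slco1a5, an organic anion transporter gene, fell by 1.79 and Csta2, a cysteine protease inhibitor gene, by 2.21 on the log2 scale. The other large falls were in Gm29475 on the Y chromosome (-4.34), Gm47140 (-2.60), Vmn2r-ps45 (-2.35), Gm7247 (-2.16) and Gm35315 (-1.80), of which the pseudogenes Gm29475 and Vmn2r-ps45 can share reads with related copies.

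Only 6 of the 86 zinc finger genes in outside islands could be tested, since the others were not listed. Zfp599 had 3, 6, 4, 9 and 6 in wild type and 21, 20, 23 and 17 in Setd8-LKO (log2 fold change 1.82, edgeR adjusted p = 0.00318). Zfp40 had 15, 31, 32, 28 and 41 against 93, 63, 71 and 69 (1.34, edgeR adjusted p = 0.012), and Zfp850 had 4, 6, 7, 5 and 6 against 21, 18, 8 and 14 (1.38, edgeR adjusted p = 0.0415). These 3 rose without overlap of the groups. Zfp37 had 70, 50, 39, 33 and 60 against 22, 29, 14 and 14 (-1.34, edgeR adjusted p = 0.0314), Zfp940 had 41, 31, 29, 19 and 42 against 16, 13, 17 and 8 (-1.28, edgeR adjusted p = 0.045), and Zfp872 had 23, 26, 48, 24 and 37 against 14, 16, 4 and 10 (-1.51, edgeR adjusted p = 0.0593, not called). Zfp599 and Zfp872 belong to the same island on chromosome 9, whose score went from 201 to 2617, and their values lay on opposite sides of the wild type ones. With DESeq2 size factors none of the 6 changed sign, but the calls became 0 higher and 3 lower (Zfp37, Zfp940 and Zfp872).

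**Figure D5:**
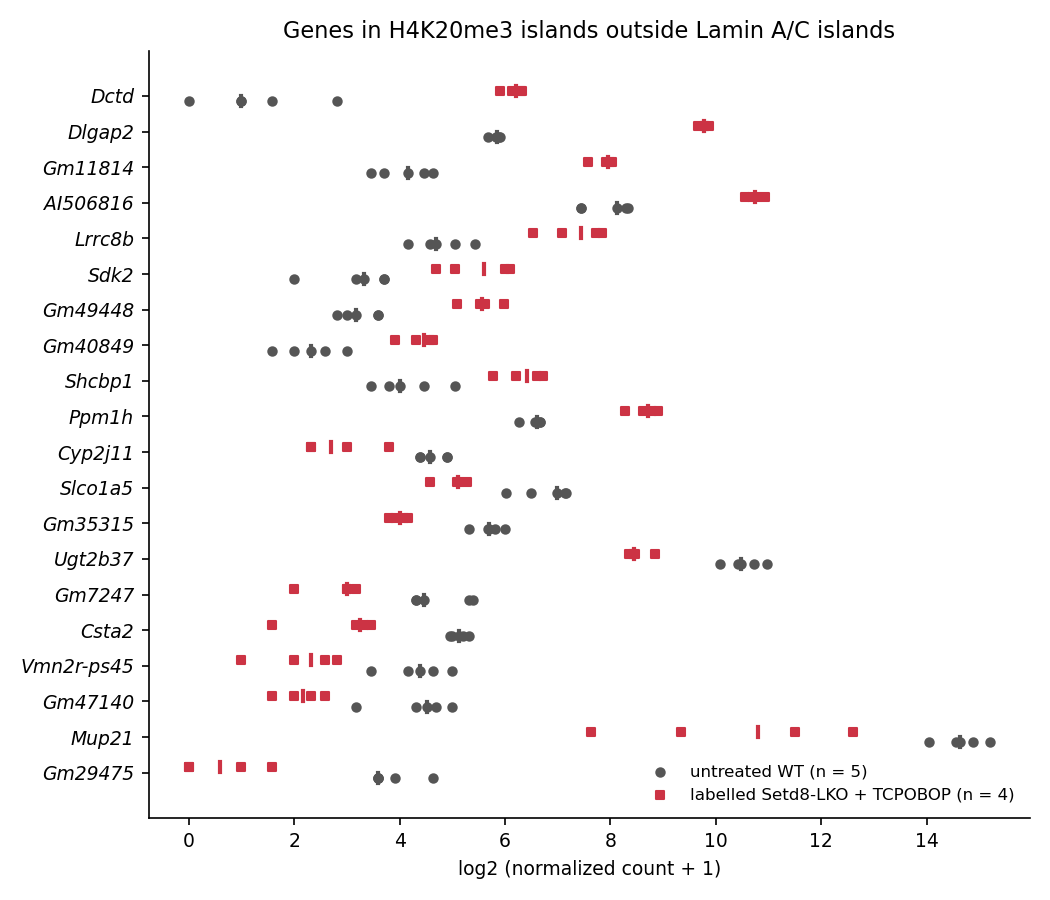
Log2 of the normalized count + 1 per library for the named genes of outside islands, in untreated wild type (5 libraries, circles) and Setd8-LKO + TCPOBOP (4 libraries, squares), with short vertical lines at the medians. The genes drawn were chosen among called genes whose groups do not overlap, so the lack of overlap is no result. The Setd8-LKO libraries of Mup21 run from 197 to 6226.

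In the table for TCPOBOP-treated against untreated wild type, which shares its untreated libraries with the former comparison, 2 genes touched an outside island and 1 could be tested. Slco1a5 had 141, 140, 89, 64 and 126 in untreated and 51, 64, 32, 63 and 56 in treated livers. The groups met at 64, and the log2 fold change was -1.07 (SE 0.28, edgeR adjusted p = 0.262). No gene of an outside island was called by edgeR, while 67.5% of the 679 genes tested were. At an unadjusted p under 0.05 the count was 1, and DESeq2 with the authors' factors also called 1. DESeq2 size factors shifted the median of all genes by -1.17 and TMM factors by -0.99. Of the heterochromatin genes Uhrf1 and Setdb1 were called higher and of the imprinted genes Peg3, but with DESeq2 size factors Setdb1 changed sign and with either of these scalings none was called. No marker gene of a cell type was among the genes tested.

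Marker genes of other liver cells moved in the same libraries. Of the cholangiocyte and progenitor markers 5 of 6 tested rose in Setd8-LKO (Sox9, Krt7, Spp1, Epcam and Cd24a), with summed normalized counts of 716, 643, 479, 704 and 500 in wild type and 7932, 6341, 1716 and 4080 in Setd8-LKO, led by Spp1. Of the stellate and fibroblast markers all 4 tested of 6 rose (Col1a1, Col3a1, Pdgfrb and Dcn), with sums of 2803, 2071, 2896, 2940 and 3108 against 11702, 10728, 5103 and 6741, led by Dcn. Of the hepatocyte markers 5 of 6 tested (10 in the list) fell (Alb, Ttr, Serpina1a, Cyp2e1 and Cps1), with sums from 1150356 to 1882211 in wild type and from 467784 to 664572 in Setd8-LKO, led by Alb. Macrophage and endothelial markers were not among the listed genes. Of the heterochromatin genes all 6 tested of 36 rose (Kmt5a, Lmna, Uhrf1, Hells, Zfp57 and Hmga2) and of the imprinted genes 5 of 7 tested (30 in the list) rose (H19, Igf2, Meg3, Peg3 and Ndn). The background for these lists was 50.7% called higher and 33.9% called lower among all 3807 genes tested, and genes not listed could not be assessed. With DESeq2 size factors no gene of these lists changed sign, and 4 cholangiocyte, 2 stellate, 2 heterochromatin and 4 imprinted genes were called higher and 6 hepatocyte markers lower. The part of these cell types in the values of the outside islands was not tested.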

How the data were processed

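The authors trimmed the CUT&Tag, ChIP-seq and ATAC-seq reads with Trimmomatic 0.39, aligned them to mm10 with HISAT2, removed duplicated, poorly mapped and blacklisted reads and, except where not stated for ATAC-seq, reduced the reads of each sample in proportion to the smallest. Islands with their scores were called by the authors with SICER2 (windows and gaps of 20 kb), and the fold enrichment and -log10 p of peaks were computed by the authors with MACS2 2.2.7.1. Whether replicates were pooled before calling is not given in the sources used here. RNA-seq reads passed through PRINSEQ, HISAT2 and metaseqR in the authors' hands. The deposited tables hold raw counts and normalized counts, a score of raw counts times a factor per library, for 3900 (Setd8-LKO) and 719 (wild type) selected genes, so that column sums (5734065 to 12780869 and 1389901 to 3706582 raw counts) are not the depth, which is unknown. Another 114 columns of transformed counts and the authors' comparison columns, which hold fold changes, p-values and FDR, were not used.

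Islands counted as matched when they shared 1 bp or more, in Python 3.11.15 with numpy 2.4.6 and pandas 2.3.3, on GRCm38 with GENCODE M21 genes, and printed from base 1. Shares carry 95% Clopper-Pearson and densities 95% Poisson intervals (scipy 1.17.1), and medians carry 95% order-statistic intervals. A gene belonged to an island if its body overlapped by 1 bp. Zinc finger genes were recognised by symbol (Zfp, Zscan, Zkscan, Zik, Zim, Rslcan, Zxd or Zbtb). Sequences were read with pysam 0.24.0 and samtools 1.23.1. The quasi-likelihood test of edgeR 4.0.16 (glmQLFit, glmQLFTest; R 4.3.3) was run on the raw counts of all listed genes with at least 10 counts in as many libraries as the smaller group has, with the authors' factors as scaling and Benjamini-Hochberg adjustment over the 55450 genes of the annotation, because the listed genes had been selected. Fold changes were thus tested only among selected genes. DESeq2 1.42.0 served the alternatives. On simulated counts with 200 genes changed 4-fold, the test found 197 of 200 among 3294 genes for Setd8-LKO and 198 of 200 among 617 for wild type, with 0 false calls in each. RNA libraries fell into 2 runs, A and B, by their column headers, which do not say what a run is. Untreated wild type replicates 3, 4 and 5 and Setd8-LKO replicate 4 were in run A, and the rest of that comparison was in run B. With run as a term, 27 genes of outside islands were called higher and 20 lower in Setd8-LKO, against 77.9% called of all genes tested. Within-run fold changes were also computed.

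The rule for the islands, the gene lists and the tests were chosen with earlier results of these data known. Named islands are the 5 longest, the 5 of highest score, the 3 longest found again and not found again, the 3 with most genes, most zinc finger genes and most wild type H3K27ac peaks, and those at the edge of the rule. Named genes are the 10 largest rises and 10 largest falls among called genes whose groups do not overlap, Kmt5a and the members of the gene lists. The Plec, Gnas, defensin, Clec4, Cyp2j and Nemp2 islands and the 6 zinc finger genes were chosen after their values were seen. The study describes its RNA libraries as biological replicates collected on one date, and the p-values measure the spread between these samples.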

Additional observations from a re-analysis of the deposited data

Results flagged for a closer look

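Of 42 groups of 4 or 5 normalized counts of named genes, 2 held a library far from the others, and chance alone gives about 1 in 20 such groups. For Ppm1h, untreated wild type replicate 2 had 76 normalized counts while the other untreated libraries had 94 to 101, a gap of 0.72 of the group's range. For Gm29475 on the Y chromosome, untreated wild type replicate 3 had 24 normalized counts while the others had 11 to 14, a gap of 0.769 of the range. Both libraries lay on the same side of the Setd8-LKO libraries as the rest of their group.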

How the results depend on the processing

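The share of outside islands found again in the Setd8-LKO H4K20Me3 list was 78.9% when at least 50% of the island had to be covered, 63.3% with 50% of both islands, 59.6% with only Setd8-LKO islands above their median score and 98.6% for the 141 outside islands above the median wild type score. Overlapping islands gave 72.0%, 61.6% and 56.4% under the first 3 of these settings in turn. The share under Setd8-LKO Lamin A/C islands was 2.17% with 50% of both and 0.986% with Setd8-LKO islands above their median score, against 51.0% and 64.6% for overlapping islands. In the outside islands above the median score, 30 of 36 tested genes were called in Setd8-LKO, against 84.6% of all genes tested. For these islands H3K27ac gave 3.20 (wild type) and 3.86 (Setd8-LKO) peaks per Mb, ATAC-seq 3.04 and 2.57, Setd8-LKO CTCF 4.20 and Setd8-LKO Smc3 4.17, with a gene in 66.7%, a median GC content of 42.4% and a CpG ratio of 0.183. Without chromosomes 19, X and Y, an alternative chosen after seeing the data, these densities were 2.97, 3.66, 2.92, 2.67, 4.49 and 4.12, with 8.15 genes per Mb, a GC content of 42.2%, a CpG ratio of 0.181 and a masked share of 42.6%. Setd8-LKO CTCF peaks with a -log10 p of at least 20 gave 2.93 per Mb, and counting genes by their start site gave 5.31 per Mb and a gene in 34.1% of islands.

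In Setd8-LKO, 38 to 48 genes of outside islands were called when each library was left out in turn, against 71.6% to 83.3% of all genes tested. For TCPOBOP-treated wild type 0 were called, against 48.7% to 63.3% of all genes tested. There, 1 gene was called with DESeq2 size factors, with TMM factors, with DESeq2 on the authors' factors and with adjustment over the listed genes alone. With a replicate block 26 of 59 tested genes in outside islands were called, 25 of them also called without it, against 58.8% of all genes tested. For TCPOBOP-treated wild type 0 were called under the block, and the calls over all genes went to 145 higher and 14 lower. The numbers share only a name, since the correlations of same-numbered libraries' deviations ran from -0.15 to 0.07 and from -0.43 to 0.1. Under the block Mup21 (adjusted p 0.106) and Cyp2j11 (0.0614) were not called. Of the other results 80 stayed within their spread or within 1.5 times, and of the values of single named genes 315 kept direction and call and 11 lost the call, for Mup21, Cyp2j11, Gm40849, Shcbp1 and Kmt5a. With DESeq2 size factors the balance in outside islands turned from 29 higher and 19 lower to 8 and 25. That of all genes tested turned from 1932 and 1289 to 816 and 1460. With the same factors Setdb1 changed sign in TCPOBOP-treated wild type. The cause of these differences was not tested. The lists have no replicates and genes outside the deposited tables could not be tested.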
